A study of Mus musculus with 9 samples.

Results

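The genes described here are 8 genes of immature thymocytes, the T cell precursors of the thymus: Rag1, Rag2, Dntt, Ptcra, Ccr9, Satb1, Arpp21 and Endou. They were found by gene name among 45706 genes, with 1 row each. The genes were chosen with their levels in these lungs known, so their levels are given as a description, without a test of their own. PolyA RNA was sequenced from whole lungs. The mice were BALB/c females of 4 to 6 weeks with a right flank tumour grown from 4T1, a mammary carcinoma cell line of the mouse. Treatment was given on days 7 and 14 after engraftment, and lungs were taken on day 21. The nanocapsule group received nanocapsules of an antibody against PD1, an inhibitory receptor of T cells. The anti-PD1 group received the antibody itself, and the PBS group received phosphate-buffered saline. The labels give 150 µg per mouse, and their wording leaves it unclear whether this dose covers the free antibody too. Each group had 3 lungs, all groups carried the tumour, and no tumour-free lung was analysed here. No label ties a lung to an animal, so errors and p-values reflect the spread between 3 numbered lungs, which may be in part technical.

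In the thymus, precursors that arrive from the bone marrow assemble their T cell receptor genes by cutting and rejoining DNA. The RAG1 and RAG2 proteins make the cuts, terminal transferase (Dntt) adds bases at the joints, and the pre-T cell receptor (Ptcra) signals that the first receptor chain is in frame. Cells then carry CD4 and CD8 together, rearrange the second chain and are selected, after which the recombination genes are shut off. Mature T cells of the lung have completed these steps. B cell precursors in the bone marrow also use the RAG proteins and terminal transferase.

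The promoters of the recombination genes are shown because Rag1, Rag2 and Dntt kept nearly the same order of the 9 lungs. They are RefSeq sequences on GRCm38.p6, from 250 bases before to 50 bases after each gene's start, in the direction of the gene. Capitals mark the E-box CANNTG, the letters bound by E proteins such as the product of Tcf3. The Rag1 window is chr2:101649483-101649782 on the minus strand, that of Rag2 is chr2:101624462-101624761 on the plus strand, and that of Dntt is chr19:41029025-41029324 on the plus strand.
Rag1: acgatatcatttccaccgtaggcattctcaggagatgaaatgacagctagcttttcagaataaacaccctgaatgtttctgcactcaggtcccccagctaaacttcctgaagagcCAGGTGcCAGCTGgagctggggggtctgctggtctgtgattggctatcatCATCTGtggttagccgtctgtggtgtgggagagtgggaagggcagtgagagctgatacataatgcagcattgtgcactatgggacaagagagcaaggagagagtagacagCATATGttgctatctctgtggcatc
Rag2: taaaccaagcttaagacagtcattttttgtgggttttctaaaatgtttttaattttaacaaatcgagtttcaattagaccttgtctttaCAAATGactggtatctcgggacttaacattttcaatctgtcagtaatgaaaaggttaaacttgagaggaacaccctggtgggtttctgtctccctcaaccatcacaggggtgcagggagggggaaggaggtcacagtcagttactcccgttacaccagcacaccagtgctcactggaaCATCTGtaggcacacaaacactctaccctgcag
Dntt: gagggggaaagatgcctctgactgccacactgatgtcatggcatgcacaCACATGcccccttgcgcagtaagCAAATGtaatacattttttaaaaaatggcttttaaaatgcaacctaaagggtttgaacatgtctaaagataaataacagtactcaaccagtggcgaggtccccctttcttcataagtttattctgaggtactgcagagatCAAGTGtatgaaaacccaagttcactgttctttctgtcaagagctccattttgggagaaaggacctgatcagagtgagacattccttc
The Rag1 window held 4 E-boxes, that of Rag2 held 2 and that of Dntt held 3. Counted from the gene's start, the 4 in Rag1 began at positions -135, -128, -85 and 26. An E-box occurred in 72.3% of 32851 RefSeq promoter windows, with a mean of 1.39 matches per window. The Ikaros core GGGAA was searched on both strands and occurred 1 time in each of the 3 windows and in 62.7% of all windows. The GATA motif AGATAA occurred in the Dntt window, at position -112, and in 11.2% of all windows. The TCF/LEF core CTTTGA was absent from the 3 windows as searched and present in 16.0% of all windows. Windows were matched for 7 of the 8 genes. That of Ptcra held 3 E-boxes and 3 GGGAA matches, and that of Ccr9 held 2 E-boxes.

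Levels are the authors' TPM, which correct for transcript length and sum to the same total in each lung. They keep no sequencing depth, so the depth was unknown and no counting error can be given for the low values. Between 12194 and 13407 genes reached 1 TPM in a lung. Differences between groups are on the log2(TPM + 1) scale, which understates the change of genes at a low level.

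Rag1 and Rag2 encode the recombinase subunits. They are neighbours on chromosome 2 of GRCm38, Rag1 from 101638282 to 101649501 on the minus strand and Rag2 from 101624718 to 101632529 on the plus strand, and both are protein coding. Rag1 was at 0.907, 4.72 and 0.911 TPM in nanocapsule lungs 1, 2 and 3, at 3.46, 0.932 and 28.3 TPM in anti-PD1 lungs 1, 2 and 3, and at 0.338, 0.460 and 8.62 TPM in PBS lungs 1, 2 and 3. One lung of each group stood above the others of its group, and the 3 groups overlapped. The highest lung, anti-PD1 3, had 30.4 times the Rag1 level of the median lung. Rag2 was at 0.320, 0.989 and 0.220 TPM in the nanocapsule lungs, at 0.617, 0.114 and 3.05 TPM in the anti-PD1 group, and at 0.0358, 0.123 and 1.40 TPM in the PBS lungs, in the same order of lung numbers. The same lung of each group was the highest, and Rag2 reached 1 TPM in 2 of the 9 lungs. Within a lung, Rag1 was at 2.84 to 9.46 times the TPM of Rag2. Both genes share exon bases with B230118H07Rik, a protein-coding gene between 2.53 and 5.69 TPM in these lungs, Rag1 over 80 bases and Rag2 over 208 bases. Reads from those bases could be assigned to either gene.

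Dntt, on chromosome 19 from 41029275 to 41059525, encodes terminal transferase. It was at 0.767, 12.1 and 1.04 TPM in nanocapsule lungs 1, 2 and 3, at 4.49, 1.17 and 46.8 TPM in anti-PD1 lungs 1, 2 and 3, and at 0.536, 0.613 and 14.1 TPM in PBS lungs 1, 2 and 3. Nanocapsule 2, anti-PD1 3 and PBS 3 were again the highest of their groups, and anti-PD1 1 came after them. The mean level was 4.63 ± 6.45 TPM in the nanocapsule lungs, 17.5 ± 25.4 TPM in the anti-PD1 lungs and 5.08 ± 7.81 TPM in the PBS lungs (SD, n = 3 each), so the SD exceeded the mean in each group. Rag1 and Dntt moved together: the ratio of Rag1 to Dntt in TPM was lowest in nanocapsule 2, at 0.391, and highest in nanocapsule 1, at 1.18, while Dntt itself differed by far more between lungs.

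Ptcra encodes the invariant chain that pairs with the first rearranged receptor chain, and marks the stage before CD4 and CD8 appear together. It lies on chromosome 17 from 46755663 to 46763712. It was at 0.0620, 0.389 and 0.207 TPM in nanocapsule lungs 1, 2 and 3, at 0.194, 0 and 1.01 TPM in anti-PD1 lungs 1, 2 and 3, and at 0, 0 and 0.237 TPM in PBS lungs 1, 2 and 3. It was the lowest of the 8 genes in mean TPM over the lungs, it was listed at 0 in 3 lungs, and its highest value was again in anti-PD1 3. Nanocapsule 2 came next and PBS 3 after it.

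Ccr9 encodes the receptor for the chemokine CCL25, which draws precursors into the thymus and T cells to the gut, so it is not restricted to thymocytes. It lies on chromosome 9 from 123678439 to 123784330. Its level was 1.25, 4.49 and 1.51 TPM in nanocapsule lungs 1, 2 and 3, 4.17, 1.80 and 24.3 TPM in anti-PD1 lungs 1, 2 and 3, and 2.02, 1.98 and 9.93 TPM in PBS lungs 1, 2 and 3. Ccr9 followed the order of Rag1 in its 4 highest lungs, and its highest lung was at 12.03 times the median lung. Its exons share 1932 bases with AC165425.1 on the other strand, which did not exceed 0.946 TPM.

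Satb1 encodes a chromatin organiser that is abundant in thymocytes and is also expressed in mature T cells and other blood cells. It lies on chromosome 17 from 51736187 to 51833290. It was at 28.8, 35.5 and 36.3 TPM in nanocapsule lungs 1, 2 and 3, at 41.2, 28.1 and 88.7 TPM in anti-PD1 lungs 1, 2 and 3, and at 36.2, 39.9 and 64.3 TPM in PBS lungs 1, 2 and 3. It was the most abundant of the 8 genes and the least variable, with a highest lung at 2.44 times the median lung. Anti-PD1 3 and PBS 3 were its highest lungs, but nanocapsule 2 did not stand above its group: Satb1 was the single gene of the 8 for which another nanocapsule lung, nanocapsule 3, was highest.

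Arpp21 encodes an RNA-binding phosphoprotein known from brain and thymocytes, on chromosome 9 from 112065091 to 112235938. It was at 0.151, 4.24 and 0.160 TPM in nanocapsule lungs 1, 2 and 3, at 1.66, 0.0818 and 11.3 TPM in anti-PD1 lungs 1, 2 and 3, and at 0.0947, 0 and 3.21 TPM in PBS lungs 1, 2 and 3. The 5 lungs outside anti-PD1 3, nanocapsule 2, PBS 3 and anti-PD1 1 stood at 0 to 0.160 TPM, the widest gap of the 8 genes, with the highest lung at 70.8 times the median lung. Arpp21 shares 580 of its 17428 exon bases with 2900079G21Rik, a lincRNA on the other strand at 0 to 4.48 TPM. Without a stated strand setting, reads from the shared bases could be assigned to either gene. Endou, on chromosome 15 from 97711015 to 97731339, encodes an endoribonuclease that cuts at uridines and is known as a transcript of mouse thymocytes. It was at 0.323, 3.51 and 0.784 TPM in nanocapsule lungs 1, 2 and 3, at 2.59, 0.621 and 17.5 TPM in anti-PD1 lungs 1, 2 and 3, and at 0.663, 0.304 and 5.13 TPM in PBS lungs 1, 2 and 3. Endou kept the order of Rag1 in its 4 highest lungs.

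**Figure D1:**
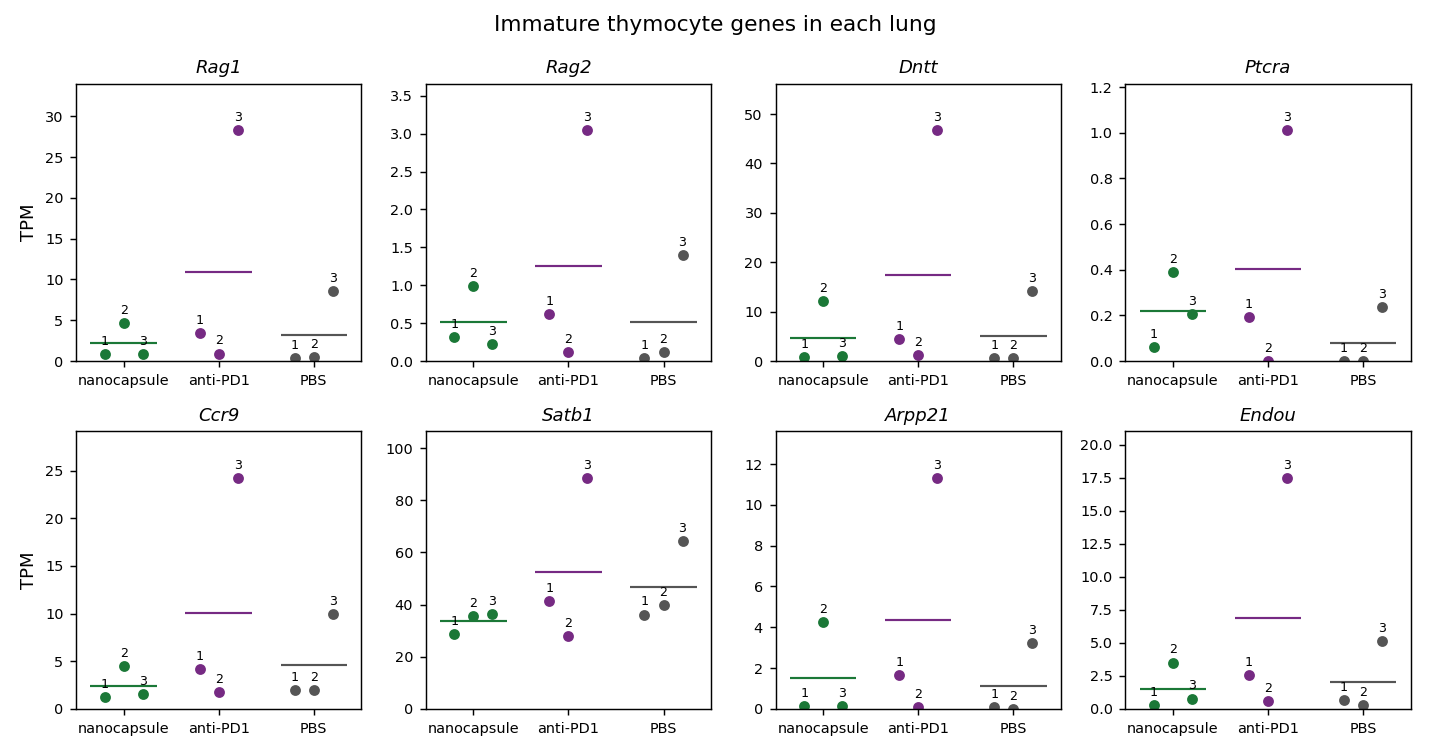
TPM of the 8 immature thymocyte genes in each lung, with 1 panel per gene and its own vertical axis from 0; points are lungs with their number, horizontal lines are group means. Anti-PD1 3 is the highest point in all 8 panels, at 28.3 TPM for Rag1 and 46.8 TPM for Dntt, and the points of the 3 groups overlap in every panel.

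The 8 genes shared an order of lungs whose highest lungs came from all 3 groups. Nanocapsule 2 was the highest nanocapsule lung for 7 of 8 genes, anti-PD1 3 the highest of the 9 lungs for 8 of 8, and PBS 3 the highest PBS lung for 8 of 8. These counts were the same in TPM as deposited, after median-of-ratios scaling and after quantile normalization. The first 4 lungs came in the order anti-PD1 3, PBS 3, nanocapsule 2 and anti-PD1 1 for Rag1, Rag2, Dntt, Ccr9 and Endou, and nanocapsule 2 came ahead of PBS 3 for Ptcra and Arpp21. The mean log2(TPM + 1) of the 8 genes was 1.11, 2.49 and 1.27 in nanocapsule lungs 1, 2 and 3, 2.07, 1.17 and 4.06 in anti-PD1 lungs 1, 2 and 3, and 1.10, 1.09 and 2.87 in PBS lungs 1, 2 and 3. Over the 9 lungs, the Pearson correlation of a gene with the mean of the other 7 ran between 0.867 for Satb1 and 0.993 for Endou. The lungs share their scaling and anti-PD1 3 stands far from the rest, so these values describe the 9 libraries and carry no p. Of 13248 genes at 1 TPM or more in at least 3 lungs, 432, or 3.26%, had nanocapsule 2, anti-PD1 3 and PBS 3 each as the highest lung of its group, against 7 of the 8 genes, which were chosen on these values.

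The comparisons between groups asked whether the antibody, free or in nanocapsules, went with other levels of these genes than PBS did, and whether the 2 forms differed. All 8 genes had a higher mean of log2(TPM + 1) in the anti-PD1 lungs than in those given PBS, except that Satb1 turned lower after median-of-ratios scaling, at -0.03, and without PBS 1 or PBS 2, and that Rag2, Ccr9 and Satb1 turned lower without anti-PD1 3. The spread between lungs was as large as the differences, and no group stood clear of another. For anti-PD1 against PBS, the log2 difference of the mean of the 8 genes was 0.75 (SE 0.92, n = 3 each), with Dntt at 1.31 (SE 1.59), Rag1 at 1.25 (SE 1.29) and Satb1 at 0.05 (SE 0.45). Without anti-PD1 3, the mean difference of the 8 genes was -0.06, and without PBS 3 it was 1.34, so its size changed with 1 lung on either side.

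For the nanocapsule against PBS, the log2 difference of the mean of the 8 genes was -0.06 (SE 0.92, n = 3 each). Single genes lay between -0.55 for Ccr9 and 0.20 for Arpp21, with Dntt at 0.11 (SE 1.59) and Rag1 at 0.05 (SE 1.29). The sign of the mean rested on the scaling, with 0.03 after median-of-ratios scaling and 0.07 after quantile normalization. It was -0.49 without nanocapsule 2 and 0.53 without PBS 3. Rag1, Rag2, Dntt and Arpp21 changed sign without nanocapsule 2, PBS 1 or PBS 2, Ccr9 without PBS 3, and Endou without nanocapsule 1, nanocapsule 3 or PBS 3 and after quantile normalization. For the nanocapsule against anti-PD1, the log2 difference of the mean of the 8 genes was -0.81 (SE 0.92, n = 3 each), with Rag1 at -1.20 (SE 1.29), Dntt at -1.20 (SE 1.59), Ccr9 at -1.19 (SE 0.98) and Endou at -1.11 (SE 1.11). Ptcra was at -0.14 (SE 0.28) and turned to 0.01 after quantile normalization. Rag2, Dntt, Ptcra and Arpp21 changed sign without anti-PD1 3. Without anti-PD1 3 the mean difference was -0.0007, and without anti-PD1 2 it was -1.44. The 3 comparisons share lungs, so their values are not independent of each other.

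Of the 8 genes, 6 passed the filter of 1 TPM in at least 3 lungs, and Rag2 and Ptcra did not. Limma called 0 of these 6 in each comparison at an adjusted p under 0.05, and 0 had an unadjusted p under 0.05. Of 13248 genes tested, 0.00755% were called in the first comparison (0% higher, 0.00755% lower). The nanocapsule against PBS comparison gave 0.00755% (0% higher, 0.00755% lower). The nanocapsule against anti-PD1 comparison gave 0.106%, with 0.0679% higher and 0.0377% lower. The lungs of the groups overlapped for 8 of 8 genes in every comparison. For all genes tested, the anti-PD1 lungs lay wholly above the PBS lungs in 12.1% and wholly below in 13.4%, the nanocapsule lungs above the PBS lungs in 2.4% and below in 11.9%, and the nanocapsule lungs above the anti-PD1 lungs in 8.73% and below in 24.6%. Nothing is read from these counts for the 8 genes, which were chosen on the same values. An exact permutation test of 3 lungs against 3 cannot give a two-sided p below 0.1. In whole lung RNA, fewer cells of a type and less RNA per cell cannot be told apart.

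Genes outside the 8 that followed them most closely over the 9 lungs were ranked by the Pearson correlation of log2(TPM + 1) with the mean of the 8 genes. Of 14647 genes at 1 TPM or more in at least 1 lung, 49, or 0.335%, reached a correlation of 0.9. The highest 12 with a name other than that of a predicted gene, clone, pseudogene or receptor segment included Tube1, Adam11, H2-T3, Myb, Slc16a5, Tmem151b, H2-Q3, Tctex1d1, Dgkeos, Sox4 and Gtf2h4, between 0.997 and 0.953. Without anti-PD1 3 their correlations were between 0.899 and 0.993. Myb, a transcription factor of blood precursors and thymocytes, was at 3.03, 4.95 and 2.95 TPM in the nanocapsule lungs, at 4.37, 2.07 and 18.3 TPM in the anti-PD1 group, and at 2.85, 2.69 and 7.96 TPM in the PBS lungs. Sox4, a transcription factor of lymphoid precursors and of other tissues, was at 2.91, 3.85 and 1.997 TPM in the nanocapsule lungs, at 4.22, 2.24 and 17.5 TPM in the anti-PD1 group, and at 2.66, 1.64 and 6.49 TPM in the PBS lungs. For Sox4, anti-PD1 1 came ahead of nanocapsule 2, and its exons share 2616 bases with Gm26735 on the other strand.

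Tube1, which encodes a tubulin of the epsilon class, had the highest correlation, and ran between 0.317 TPM in PBS 2 and 1.97 TPM in anti-PD1 3. H2-T3 and H2-Q3 are class I genes of the major histocompatibility complex with near-identical relatives, so their levels are uncertain. H2-Q3 was at 2.39 TPM in nanocapsule 2, 12.5 TPM in anti-PD1 3 and 2.68 TPM in PBS 3, and listed at 0 in PBS 1 and PBS 2. H2-T3, which encodes the TL antigen of thymocytes and gut epithelium in several strains, was at 2.14 TPM in anti-PD1 3 and at 0.0572 to 0.606 TPM in the other 8 lungs. Gtf2h4, a subunit of the general transcription factor TFIIH, was at 68.4 TPM in anti-PD1 3 and between 5.66 and 17.0 TPM elsewhere. Slc16a5, of the monocarboxylate transporter family, was at 10.3 TPM in anti-PD1 3 and at 0.481 to 5.12 TPM elsewhere. Adam11, Tmem151b, Tctex1d1 and Dgkeos stayed at or below 4.43 TPM in every lung.

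**Figure D2:**
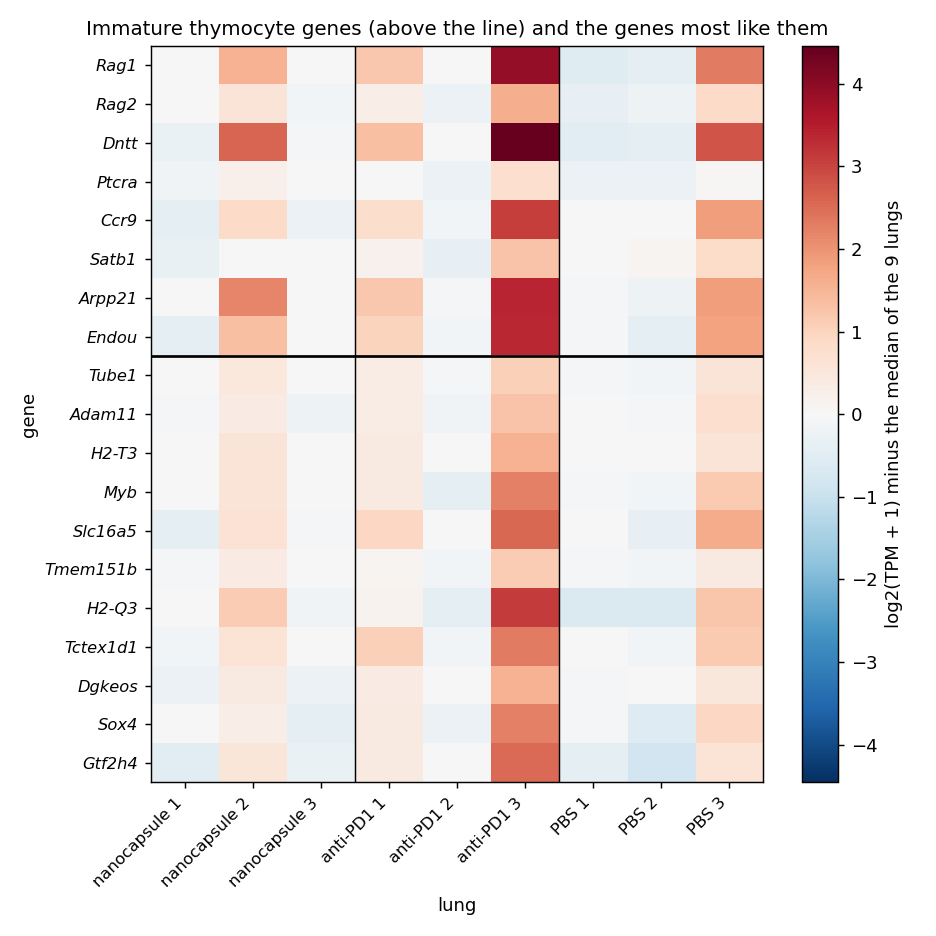
Log2(TPM + 1) minus the median of the 9 lungs, as colour, for the 8 immature thymocyte genes (above the line) and 11 of the 12 genes most like them (below the line); columns are lungs in the groups nanocapsule, anti-PD1 and PBS. The columns of anti-PD1 3, PBS 3 and nanocapsule 2 are red for nearly every gene, and Satb1 and Ptcra are the palest rows among the 8 genes.

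Other thymocyte genes were read from lists that were chosen with earlier results of these data known. Of 12 genes of double-positive thymocytes, 6 had nanocapsule 2, anti-PD1 3 and PBS 3 each as the highest lung of its group, against 3.26% of all tested genes. Cd8b1, the beta chain of the CD8 co-receptor, was at 18.2, 20.8 and 13.5 TPM in nanocapsule lungs 1, 2 and 3, at 38.5, 15.4 and 90.9 TPM in anti-PD1 lungs 1, 2 and 3, and at 15.4, 14.8 and 51.9 TPM in PBS lungs 1, 2 and 3. Cd8b1 put anti-PD1 1 ahead of nanocapsule 2. Cd8a, the alpha chain, had the same first 4 lungs, with 10.3 TPM in nanocapsule 2 and 54.8 TPM in anti-PD1 3. It was at 6.85 TPM or more in every lung, and at 7.83 TPM in PBS 2, where Arpp21 was listed at 0. The part of mature T cells in the levels of Cd8a and Cd8b1 was not tested. Cd4, the co-receptor of helper T cells and of double-positive thymocytes, was at 10.4, 12.9 and 12.6 TPM in the nanocapsule lungs, at 33.0, 12.8 and 48.2 TPM in the anti-PD1 group, and at 16.1, 15.2 and 29.5 TPM in the PBS lungs. For Cd4, nanocapsule 2 and nanocapsule 3 were nearly level. Cd24a, the most abundant gene of the list and one that neutrophils also express, was highest in nanocapsule 3, at 522 TPM, and stood at 355 TPM in anti-PD1 3 and 406 TPM in PBS 3. Cd1d1, of the same list, was highest in anti-PD1 1, at 21.6 TPM, and lowest of all lungs in nanocapsule 2, at 8.99 TPM. Id3 was highest in anti-PD1 3, at 51.0 TPM, but PBS 1, at 39.6 TPM, stood above PBS 3, at 37.6 TPM.

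Against PBS, 10 of the 11 tested double-positive genes had higher means in the anti-PD1 lungs (9 of 11 after either scaling), beside 56.9% of all tested genes, with a median log2 difference of 0.34 beside 0.04 over all tested genes. In the nanocapsule group 10 of 11 had lower means than in the PBS group, with a median of -0.41 beside -0.11 over all tested genes, and 71.2% of all tested genes had lower means there. The count was 9 of 11 after median-of-ratios scaling and 8 of 11 after quantile normalization. The nanocapsule lungs lay wholly below the PBS lungs in 6 of these 11, beside 11.9% of all tested genes. In the nanocapsule against anti-PD1 comparison the median was -0.95 beside -0.17, and median-of-ratios scaling brought these to -0.76 and -0.002. Limma called 0 of the 122 tested genes of the 18 lists in each comparison. At an unadjusted p under 0.05 there were 18 (14.8%, beside 16.5% of all tested genes) when anti-PD1 was set against PBS, 31 (25.4%, beside 10.1%) when the nanocapsule was set against PBS and 50 (40.98%, beside 27.7%) when it was set against the free antibody. The lowest adjusted p of a double-positive gene in the last comparison was 0.0567. Genes of the lists were called there when a PBS lung was left out of the fit, 15 without PBS 2 (12.3%, beside 7.29% of all genes tested in that fit) and 3 without PBS 3 (2.46%, beside 1.48%).

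Most genes of the pre-T cell receptor stage did not share the order. Notch1, the receptor that commits precursors to the T lineage, was at 31.7, 40.5 and 39.5 TPM in nanocapsule lungs 1, 2 and 3, at 30.3, 39.2 and 29.5 TPM in anti-PD1 lungs 1, 2 and 3, and at 34.98, 52.8 and 40.1 TPM in PBS lungs 1, 2 and 3, with anti-PD1 3 the lowest lung of all. Notch3, which double-negative thymocytes and vascular smooth muscle express, was at 0.330, 0.484 and 0.277 TPM in the nanocapsule lungs, at 1.30, 1.05 and 2.77 TPM in the anti-PD1 group, and at 0.515, 0.208 and 1.14 TPM in the PBS lungs. Notch3 was the single gene of the list with nanocapsule 2, anti-PD1 3 and PBS 3 each as the highest lung of its group, and its nanocapsule lungs lay wholly below its anti-PD1 lungs. Il2ra, a receptor chain of early thymocytes, activated and regulatory T cells, ran between 1.34 TPM in nanocapsule 2 and 4.21 TPM in anti-PD1 3. Tcf3, which encodes an E protein that binds the E-box, ran between 34.8 and 51.3 TPM. Of the 10 genes of this list, nanocapsule 2 was the highest lung of its group for 3, anti-PD1 3 for 6 and PBS 3 for 7, beside 15.8%, 42.8% and 48.1% of all tested genes.

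The enzymes that rejoin the cut DNA are present in most cells, and they differed among themselves in how far they varied between lungs. Xrcc6, which encodes the Ku70 subunit that binds broken ends, was at 5.08, 6.49 and 5.83 TPM in nanocapsule lungs 1, 2 and 3, at 8.39, 7.09 and 19.997 TPM in anti-PD1 lungs 1, 2 and 3, and at 6.46, 5.49 and 12.4 TPM in PBS lungs 1, 2 and 3. Its highest lung in each group was the same as for Rag1, and its highest lung overall stood at 3.08 times the median lung, above the ratio of Satb1. Xrcc4, the partner of the ligase, ran between 6.90 TPM in nanocapsule 2 and 17.1 TPM in anti-PD1 1. Lig4, the ligase of end joining, was at 1.16 to 2.66 TPM, and Prkdc, the catalytic subunit of DNA-dependent protein kinase, at 1.02 to 2.10 TPM. Anti-PD1 3 was the highest lung for Lig4 and PBS 3 for Prkdc. Polm, a polymerase related to terminal transferase, was at 11.4 TPM in anti-PD1 3, below the 16.6 TPM of anti-PD1 1. Hmgb1, an abundant chromatin protein that assists the recombinase, was highest in anti-PD1 3, at 322 TPM, and at 213 to 276 TPM in the other lungs. Of 12 genes, 2, Xrcc6 and Lig4, had the 3 lungs each as the highest of its group, beside 3.26% of all tested genes.

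Genes of the CD3 complex, which thymocytes and mature T cells both carry, did not share 1 order of lungs. Cd3e, the epsilon chain, was at 33.2, 26.9 and 31.6 TPM in nanocapsule lungs 1, 2 and 3, at 72.4, 34.1 and 79.98 TPM in anti-PD1 lungs 1, 2 and 3, and at 40.1, 34.0 and 69.5 TPM in PBS lungs 1, 2 and 3. Nanocapsule 2, with the third highest Dntt level, had the lowest Cd3e level of the 9 lungs, and anti-PD1 1, with the second highest Cd3e level, had a Dntt level below that of nanocapsule 2. Cd3d, the delta chain, was at 47.7, 48.5 and 43.1 TPM in the nanocapsule lungs, at 67.1, 46.3 and 79.6 TPM in the anti-PD1 group, and at 48.97, 50.2 and 75.3 TPM in the PBS lungs, so nanocapsule 2, anti-PD1 3 and PBS 3 were each the highest of their group. Dntt per Cd3e in TPM was 0.0231, 0.449 and 0.0330 in nanocapsule lungs 1, 2 and 3, 0.0620, 0.0344 and 0.585 in anti-PD1 lungs 1, 2 and 3, and 0.0134, 0.0181 and 0.203 in PBS lungs 1, 2 and 3. Per Cd3e, nanocapsule 2 thus came second after anti-PD1 3 and ahead of PBS 3, and Rag1 per Cd3e gave the same first 3 lungs, at 0.175, 0.354 and 0.124 in nanocapsule 2, anti-PD1 3 and PBS 3. Dntt per Cd3d was 0.249, 0.588 and 0.187 in these lungs and did not exceed 0.0669 in the other 6. Satb1 per Cd3e stayed between 0.568 in anti-PD1 1 and 1.32 in nanocapsule 2.

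**Figure D3:**
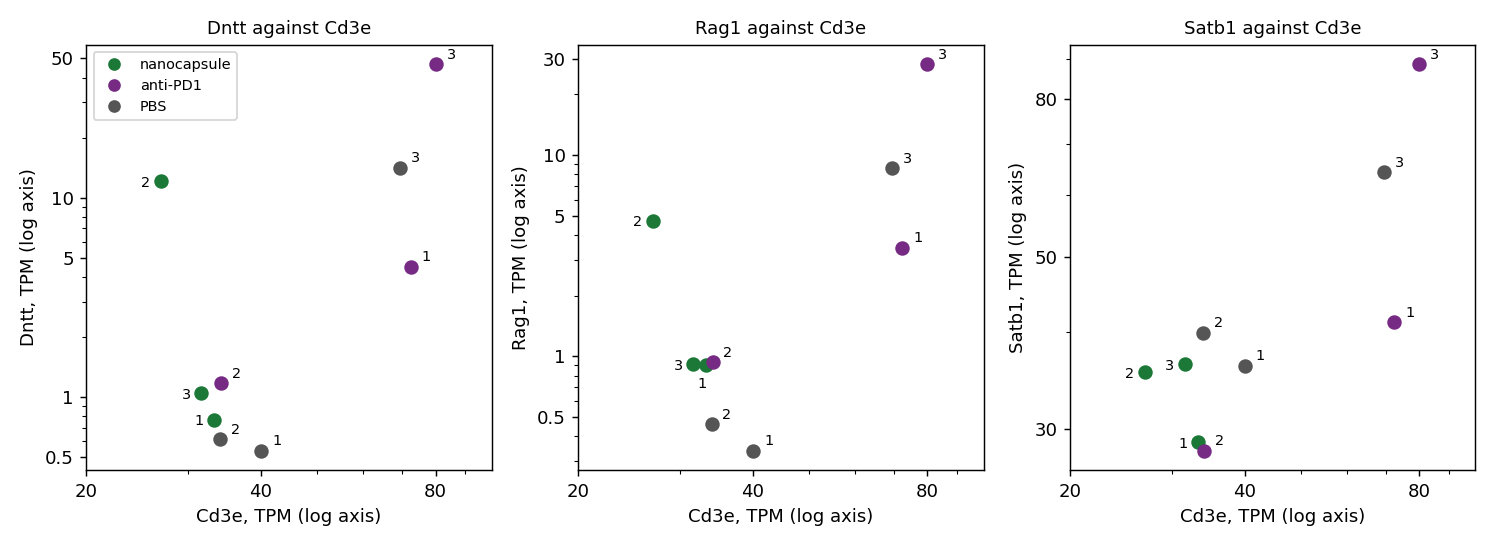
Dntt, Rag1 and Satb1 (vertical, TPM) against Cd3e (horizontal, TPM) in the 9 lungs on log axes; points are lungs with their number, colours are groups. Nanocapsule 2 lies at the left edge at 26.9 TPM of Cd3e with Dntt at 12.1 TPM, and anti-PD1 1 lies at 72.4 TPM of Cd3e with Dntt at 4.49 TPM.

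Of 17 genes of T lineage factors and signalling, 4 had nanocapsule 2, 15 had anti-PD1 3 and 16 had PBS 3 as the highest lung of its group, beside 15.8%, 42.8% and 48.1% of all tested genes. The 4 genes with nanocapsule 2 had all 3 lungs as the highest of their groups. Tcf7, a factor of early thymocytes and of naive T cells, was at 40.9, 45.4 and 43.6 TPM in nanocapsule lungs 1, 2 and 3, at 86.1, 32.2 and 176 TPM in anti-PD1 lungs 1, 2 and 3, and at 47.1, 48.1 and 106 TPM in PBS lungs 1, 2 and 3. Ets1 and Ikzf1, broad lymphoid factors, were at 44.99 and 76.7 TPM in nanocapsule 2, the lowest of the 9 lungs for Ets1 and the next to lowest for Ikzf1. All 17 genes had lower means in the nanocapsule group than in the PBS group (16 of 17 after quantile normalization), as did 71.2% of all tested genes, and in 10 of the 17 the nanocapsule lungs lay wholly below, beside 11.9% of all tested genes. Limma called 0 of the 17 in that comparison, with 4 at an unadjusted p under 0.05, beside 10.1% of all tested genes, and a lowest adjusted p of 0.459. Against the anti-PD1 lungs, 16 of the 17 had lower means in the nanocapsule lungs, beside 70.8% of all tested genes, with a lowest adjusted p of 0.0952.

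The constant genes of the T cell receptor parted by chain. Trac, the constant part of the alpha chain that is assembled last, was at 56.5, 24.9 and 45.03 TPM in nanocapsule lungs 1, 2 and 3, at 134, 39.8 and 113 TPM in anti-PD1 lungs 1, 2 and 3, and at 72.7, 55.8 and 103 TPM in PBS lungs 1, 2 and 3. Nanocapsule 2 had the lowest Trac level of the 9 lungs, and anti-PD1 1 stood above anti-PD1 3. Trbc2, a constant part of the beta chain that is assembled first, was at 115, 142 and 99.0 TPM in the nanocapsule lungs, at 255, 121 and 468 TPM in the anti-PD1 group, and at 121, 110 and 287 TPM in the PBS lungs. Trbc2 had the same highest lung in each group as Rag1, and so did Trbc1, at 72.2 TPM in nanocapsule 2, 294 TPM in anti-PD1 3 and 158 TPM in PBS 3. Trbc1 and Trbc2 are near-identical copies, so the split between them is uncertain. Trdc, of the delta chain, was at 1.21 to 2.71 TPM in 8 lungs and at 5.06 TPM in anti-PD1 3.

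Markers of other cells and tissues that a lung piece could hold were set beside the 8 genes. Foxn1, the factor that defines thymic epithelium, was listed at 0 in all 9 lungs. Psmb11, the proteasome subunit of the thymic cortex, was at 0.120 TPM in anti-PD1 3 and did not exceed 0.0350 TPM in the other 8 lungs, being listed at 0 in nanocapsule 2 and PBS 3. Aire, of medullary epithelium, did not exceed 0.368 TPM, in PBS 3. Prss16, a thymus-specific serine protease, was at 5.23, 7.02 and 3.85 TPM in nanocapsule lungs 1, 2 and 3, at 3.51, 3.25 and 3.32 TPM in anti-PD1 lungs 1, 2 and 3, and at 4.68, 5.77 and 4.77 TPM in PBS lungs 1, 2 and 3. It was thus present in every lung, and anti-PD1 3 was next to lowest. Ccl25, the ligand of CCR9, was at 2.69 TPM in nanocapsule 2, 1.41 TPM in anti-PD1 3 and 0.609 TPM in PBS 3, and at 0.445 to 1.45 TPM in the other 6 lungs. Of the other genes of the list, Tbata, Dll4, Krt5 and Pax1 were highest in anti-PD1 3. Krt14 was highest in nanocapsule 1, at 0.966 TPM beside 0.717 TPM in anti-PD1 3. Ly75 was highest in anti-PD1 2, at 26.7 TPM beside 22.5 TPM in anti-PD1 3. Tbata, known from thymus, brain and testis, was listed at 0 in nanocapsule 2, and was at 1.22 TPM in anti-PD1 3 and 0.497 TPM in PBS 3. Dll4, a Notch ligand of thymic epithelium and of endothelium, was at 0.336 TPM in nanocapsule 2, 3.45 TPM in anti-PD1 3 and 1.05 TPM in PBS 3. Krt5, a keratin of basal epithelial cells, reached 0.213 TPM in anti-PD1 3, beside 0.204 TPM in anti-PD1 1, and Pax1, a factor of thymic epithelium, was at 0.0287 TPM in anti-PD1 3 and listed at 0 in the other 8 lungs. The summed level of the 11 thymic epithelium genes was 25.4 to 29.9 TPM in the nanocapsule lungs, 29.7 to 33.1 TPM in the anti-PD1 lungs and 26.4 to 33.1 TPM in the PBS lungs, mostly from Ly75, which dendritic cells also express, and 6 of the 11 were under 1 TPM in every lung. Of the 10 genes of this list above 0 TPM, nanocapsule 2 was the highest nanocapsule lung for 4, anti-PD1 3 the highest anti-PD1 lung for 6 and PBS 3 the highest PBS lung for 4. The shares of all tested genes were 15.8%, 42.8% and 48.1%. For 1 gene the 3 lungs were each the highest of their group, beside 3.26% of all tested genes. These sets are unlike, since tested genes reached 1 TPM in at least 3 lungs and 4 genes of this list did so. The part of thymic tissue in the levels of the 8 genes was not tested.

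Genes of B cell precursors, which share Rag1, Rag2 and Dntt, were read next. Nanocapsule 2 was the highest lung of its group for 0 of the 10 genes in their list, anti-PD1 3 for 4 and PBS 3 for 7. All tested genes gave 15.8%, 42.8% and 48.1%. Vpreb1, a surrogate light chain gene, was at 1.91, 1.63 and 0.994 TPM in nanocapsule lungs 1, 2 and 3, at 0.839, 1.31 and 1.47 TPM in anti-PD1 lungs 1, 2 and 3, and at 1.33, 1.99 and 0.849 TPM in PBS lungs 1, 2 and 3. Igll1, its partner, ran between 0.408 TPM in PBS 1 and 1.49 TPM in anti-PD1 3. Of 10 genes of the B cell progenitor list and 6 of the B cell list, 0 had the 3 lungs each as the highest of its group. Beside 3.26% of all tested genes, the lists are too short for that count to tell. The summed levels of the 2 lists were lowest in nanocapsule 2, at 163 and 86.3 TPM. Siglech, of plasmacytoid dendritic cells, which also transcribe Ccr9, was at 2.76, 2.09 and 3.53 TPM in the nanocapsule lungs, at 5.77, 4.11 and 4.09 TPM in the anti-PD1 group, and at 4.66, 4.39 and 9.77 TPM in the PBS lungs. Siglech was highest in PBS 3 and lowest in nanocapsule 2. Among the 8 genes of its list, 1 (12.5%, beside 3.26% of all tested genes) had the 3 lungs each as the highest of its group. Of 10 mature T cell genes, 1 (10%, beside 3.26% of all tested genes) had the 3 lungs each as the highest of its group. S1pr1, the receptor by which T cells leave the thymus and lymph nodes, was lowest in nanocapsule 2, at 15.8 TPM, and highest in PBS 3, at 39.1 TPM. Of the 2 gut homing integrin genes that act with CCR9, Itga4 and Itgb7, 0 had the 3 lungs each as the highest of its group, beside 3.26% of all tested genes. Itgb7 was at 73.7 to 106 TPM over the 9 lungs. Of 10 proliferation genes, nanocapsule 2 was the highest lung of its group for 2, anti-PD1 3 for 10 and PBS 3 for 6. The shares of all tested genes were 15.8%, 42.8% and 48.1%. For 2 of the 10 (20%, beside 3.26% of all tested genes) the 3 lungs were each the highest of their group. Mki67 was at 5.41 TPM in nanocapsule 2, 9.33 TPM in anti-PD1 3 and 8.28 TPM in PBS 3.

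Glycam1, of the high endothelial vessels of lymph nodes, was at 0, 2.28 and 0 TPM in nanocapsule lungs 1, 2 and 3, at 6.63, 0.169 and 1.17 TPM in anti-PD1 lungs 1, 2 and 3, and at 0.986, 0.368 and 12.6 TPM in PBS lungs 1, 2 and 3. It was highest in nanocapsule 2 and PBS 3 of their groups, and in anti-PD1 1 rather than anti-PD1 3. Ccl21a, of lymph node stroma and lymphatic vessels, was at 2.76 TPM in nanocapsule 2, 15.0 TPM in anti-PD1 3 and 7.81 TPM in PBS 3, and highest in anti-PD1 2, at 17.0 TPM. Cardiac muscle genes summed to 21.9, 4.16 and 18.8 TPM in nanocapsule lungs 1, 2 and 3, 7.91, 10.1 and 20.7 TPM in anti-PD1 lungs 1, 2 and 3, and 3.71, 2.63 and 9.10 TPM in PBS lungs 1, 2 and 3. They were highest of their group in anti-PD1 3 and PBS 3. Nanocapsule 2 was the lowest of its group, above PBS 1 and PBS 2. Myh6, the atrial and adult ventricular myosin of the mouse, did not exceed 3.14 TPM. Adipose, thyroid and oesophagus genes were low in every lung: Ucp1, of brown fat, did not exceed 0.0476 TPM. Sftpc, the surfactant gene of the lung itself, was at 629 TPM in nanocapsule 2, 3316 TPM in anti-PD1 3 and 1021 TPM in PBS 3, and at 343 to 3410 TPM over all lungs, so lung epithelium was present in each. The part of these tissues in the levels of the 8 genes was not tested.

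**Figure D4:**
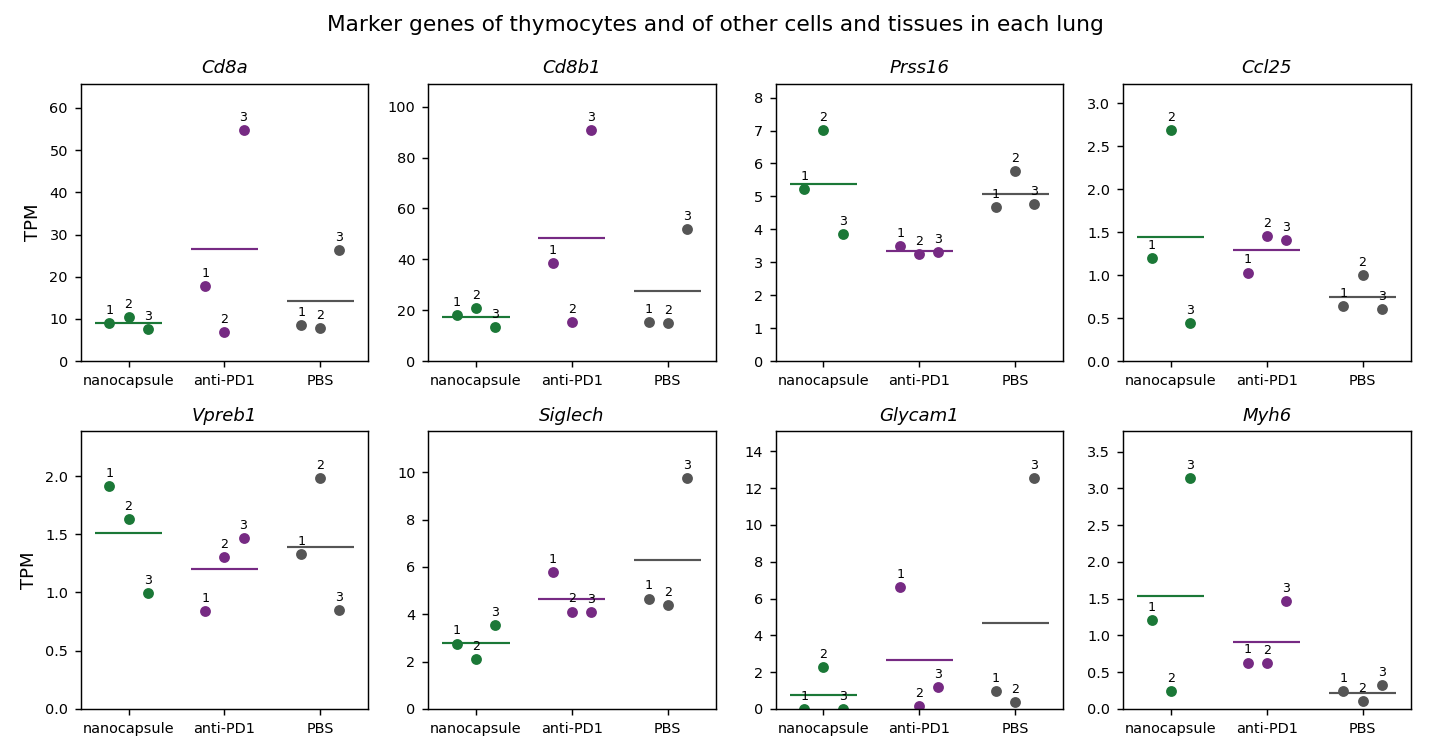
TPM of 8 marker genes in each lung, with 1 panel per gene and its own vertical axis from 0; points are lungs with their number, horizontal lines are group means. Cd8a and Cd8b1, from the list of double-positive thymocyte genes, have their highest point in anti-PD1 3, at 54.8 and 90.9 TPM. Prss16 and Ccl25 have theirs in nanocapsule 2, Siglech and Glycam1 in PBS 3, and Vpreb1 and Myh6 in other lungs.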

How the data were processed

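The deposited table holds gene-level TPM of 9 lungs, which the authors scaled to the same sum per library. Salmon is named by the table's title. DESeq2 and GRCm38 stand in the submitters' processing notes with neither version nor role, and the sources used here give no strand setting or filter. All 9 value columns were used. The 8 genes, the 18 lists (143 genes) and the tests were chosen with earlier results of these data known. Genes named are the 8, the 12 others most correlated with their mean, and from the lists defining markers and abundant genes; single list genes named to show a range were chosen after their values were seen. One gene that the rule names is not reported here.

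The 13248 genes that reached 1 TPM in 3 or more lungs were fitted on log2(TPM + 1) with limma 3.58.1 under R 4.3.3. The model had an intensity trend and 1 spread over the 3 groups. Tests were two-sided, Benjamini-Hochberg adjusted over all tested genes. The fit was tested on simulated data. Differences of the 8 genes are plain group differences with the SE over lungs (6 residual degrees of freedom). Positions come from GENCODE M21 on GRCm38, which held 45143 of 45706 gene IDs, and promoter windows from RefSeq.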

Additional observations from a re-analysis of the deposited data

How the results depend on the processing

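The number of the 8 genes called was 0 under every alternative run, and the mean difference of the 8 genes moved by less than the spread between lungs in all 45 of its alternatives. Filters and the intensity trend do not enter that mean and were not run on it. Leaving out 1 lung at a time gave -0.06 to 1.38 for anti-PD1 against PBS and -0.49 to 0.53 for the nanocapsule against PBS. For the nanocapsule against anti-PD1 it gave -1.44 to -0.0007, beside a main difference of -0.81 with an SE of 0.92. The mean difference thus has no settled sign in any of the comparisons. For anti-PD1 against PBS it was 1.38 without anti-PD1 2, 0.46 without PBS 1 and 0.45 without PBS 2. Leaving out nanocapsule 2 gave -1.24 when the nanocapsule was set against anti-PD1. A pseudocount of 0.1 gave 1.26, 0.21 and -1.05 in the same order. Of the values of single genes, 358 stayed within the gene's own spread between lungs, with the same limits. The 2 that moved by more were both for Ptcra at a pseudocount of 0.1 (1.09 for anti-PD1 against PBS and 0.95 for the nanocapsule against PBS).

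Genes called over the whole table were few and unstable, and the cause was not tested. For anti-PD1 against PBS 1 gene was called, and 0 with a pseudocount of 0.1, median-of-ratios scaling, quantile normalization or no intensity trend, and 0 to 3 with 1 lung left out. For the nanocapsule against PBS 1 was called, 2 with a pseudocount of 0.1 or 0.5 or no trend, 0 with no filter or quantile normalization, 3 with a mean of at least 5 TPM, 4 with median-of-ratios scaling, and 0 to 4 with 1 lung left out. For the nanocapsule against anti-PD1 14 were called, 3 with no filter, 197 with a mean of at least 5 TPM, 22 with median-of-ratios scaling, 75 with quantile normalization, 2 with no trend, 476 with only the 6 lungs of these groups, and 0 to 960 with 1 lung left out (960 without PBS 2, 194 without PBS 3, 5 without nanocapsule 1, 1 without nanocapsule 3 or anti-PD1 3, and 0 without nanocapsule 2, anti-PD1 1 or anti-PD1 2). Genes of the lists were called in that comparison alone. With the 5 TPM filter they were 3 of 88, beside 197 of 9040 genes tested. With quantile normalization they were 1 of 122, beside 75 of 13248, and with only these groups 6 of 122, beside 476 of 13248. Up to 15 of 122 were called with 1 lung left out, beside 960 of 13168 in that fit.

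Whether the replicate numbers pair the lungs was not settled. Of 9 same-numbered pairs, 3 deviated together with a correlation above 0.1, and the 9 ran from -0.182 to 0.279. However, 6 of 9 lungs correlated best with a lung of their own number. With the replicate number as a block, 1, 5 and 1095 genes were called in the 3 comparisons, and 0 of the 8. In the last comparison 27 of the 122 tested list genes were called, beside 1095 of 13248 genes tested. The block cannot change the mean differences of the 8 genes, 0.75, -0.06 and -0.81, since every group holds each replicate number.

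Of the 12 genes most like the 8, 4 were kept by Spearman correlation, 7 when 1 TPM was asked in 3 lungs, 5 without nanocapsule 2 and 7 without anti-PD1 3. The unknown depth limits what can be said of levels under 1 TPM.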
